A study of Mus musculus with 4 samples.

Results

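The small leucine-rich proteoglycans are secreted matrix proteins built around a short run of leucine-rich repeats, and 10 of their genes (*Dcn*, *Lum*, *Bgn*, *Fmod*, *Ogn*, *Omd*, *Prelp*, *Aspn*, *Kera* and *Epyc*) were followed in the palatal mesenchyme of *Foxf2* mutant embryos. The genes were picked by name, with earlier results of these data known, and all 10 were found among the 21352 genes listed in each embryo. RNA-seq was carried out on RFP+ cells sorted from the dissected palatal shelves of 4 mouse littermates of mixed background at E13.5. Of these, 2 were *Foxf2*-/-*Osr2*RFP/+ and the controls were 1 *Osr2*RFP/+ embryo and 1 *Foxf2*+/-*Osr2*RFP/+ embryo. All 4 embryos were heterozygous for the *Osr2*RFP knock-in allele, which labels the cells that express *Osr2*, and the loss of *Foxf2* in the mutants was constitutive and not limited to the palate. Each control genotype was a single embryo, so the spread between the controls includes any effect of losing 1 *Foxf2* allele. The comparison asked whether RNA of these matrix genes differed in palatal mesenchyme that lacked Foxf2, a forkhead transcription factor whose loss causes cleft palate in mice.

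Small leucine-rich proteoglycans bind the surface of collagen fibrils and limit how thick the fibrils grow. They are sorted into classes by sequence. Class I (*Dcn*, *Bgn*, *Aspn*) mostly carries chondroitin or dermatan sulfate chains, class II (*Lum*, *Fmod*, *Kera*, *Prelp*, *Omd*) mostly carries keratan sulfate, and *Ogn* and *Epyc* belong to class III. Several of the core proteins also bind TGF-beta, and the family is known for its part in connective tissues such as tendon, cornea, cartilage, bone and the mesenchyme of the embryo.

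The unit was FPKM (fragments per kilobase, scaled to the mapped fragments of a library), summed over the transcript entries of a gene. Because FPKM is scaled by transcript length, levels of different genes may be set side by side. The number of reads per library was not in the files used here. The ratio of mean read coverage to FPKM, which is proportional to depth, lay between 1.36 and 1.61 in the 4 libraries. *Foxf2* itself was at 85.4 FPKM in the *Osr2*RFP/+ embryo, 45.1 in the *Foxf2*+/-*Osr2*RFP/+ embryo, and 1.41 and 2.28 in the *Foxf2*-/- embryos, in the order of the labels. The 8 palatal mesenchyme markers, among them *Osr2*, *Prrx1* and *Msx1*, summed to 625 to 670 FPKM in every library. Within this sum, both mutants were above both controls for 2 markers and below for 4, beside 9.89% and 35.8% of the genes tested below. *Pax9* was at 81.2 and 100 FPKM in controls, against 127 and 127 in the mutants. *Twist1* was at 133 and 125 FPKM in controls, against 103 and 107 in the mutants. RNA of erythroid cells was present in all libraries, at 297 and 1819 summed FPKM in controls, against 1593 and 4352 in the mutants. The groups overlapped in this sum, and the *Osr2*RFP/+ control was lower than the other 3 embryos. Its part in the differences given below was not tested. Epithelial markers summed to 7.69 to 9.75 FPKM, and endothelial markers to 0.417 and 0.608 in the controls and 0.893 and 1.503 in the mutants. In RNA from bulk sorted cells, fewer cells that express a gene and less RNA per cell cannot be told apart.

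The 10 genes covered a wide range of levels, and their order was nearly the same in every embryo. *Bgn*, which encodes biglycan, was highest at 103 to 129 FPKM over the 4 embryos, and *Lum*, which encodes lumican, followed at 87.0 to 103 FPKM. *Dcn*, which encodes decorin, came next at 23.6 to 34.7 FPKM, ahead of *Ogn* (osteoglycin) at 9.21 to 12.8 and *Aspn* (asporin) at 4.24 to 5.65. *Kera* (keratocan) was at 1.82 to 3.25 FPKM, *Fmod* (fibromodulin) at 0.917 to 2.47, *Omd* (osteomodulin) at 1.20 to 1.55, *Prelp* at 0.305 to 0.827, and *Epyc* (epiphycan) at 0 to 0.368. Ordered by the mean of the controls, the ranges of *Kera* and *Fmod*, of *Fmod* and *Omd*, and of *Prelp* and *Epyc* overlapped. Within every embryo, though, *Kera* was above *Fmod* and *Prelp* was above *Epyc*. The ranges of the other neighbours did not overlap. The ranks were identical in the 4 embryos except that *Fmod* and *Omd* changed places.

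**Figure D1:**
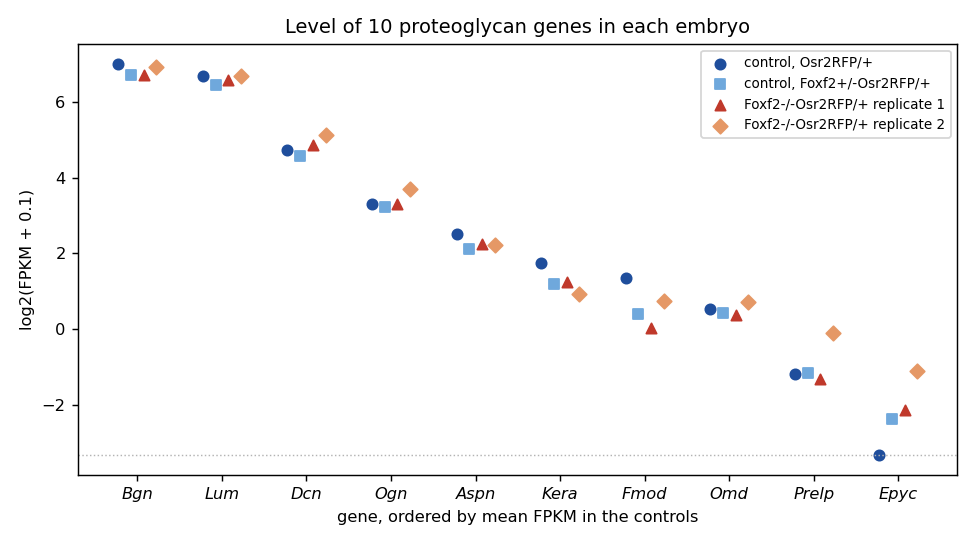
Level of the 10 genes in each of the 4 embryos as log2(FPKM + 0.1), ordered by the mean FPKM of the controls, with 1 point per embryo. The dotted line marks an FPKM of 0. The points of *Bgn*, *Lum* and *Dcn* lie above the rest, and the range of *Fmod* overlaps those of *Kera* and of *Omd*.

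*Bgn*, *Lum* and *Dcn* together made up 91.7 to 92.2% of the summed FPKM of the 10 genes in each embryo. The sum over the 10 genes was 281 FPKM in the *Osr2*RFP/+ control, 234 in the *Foxf2*+/-*Osr2*RFP/+ control, and 247 and 282 in the mutants. The groups overlapped, and the sum was 0.0911 to 0.110% of all FPKM. *Bgn* and *Lum* stood at the 98.8 and 98.6 percentiles of mean FPKM among all genes listed, and *Dcn* at the 93.8 percentile. *Prelp* at the 42.3 percentile and *Epyc* were below the mean of 1 FPKM required of a gene to be tested. Accordingly 8 of the 10 genes were tested, among 11154 genes in all.

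Differences were tested with limma on log2(FPKM + 0.1), mutant minus control. A gene was called at a Benjamini-Hochberg adjusted p under 0.05 over all genes tested and a change over 1.5-fold. None of the 8 tested members was called, against 7 of the 11154 genes (0.0628%), which were 6 higher (0.0538%) and 1 lower (0.00897%) in the mutants. At an unadjusted p under 0.05, limma gave 1 member (*Dcn*), beside 13% of all genes. None of the 8 changed by over 1.5-fold in the same direction against both controls, beside 1.4% of all genes tested, 0.717% higher and 0.681% lower in the mutants. With 2 embryos against 2, a two-sided exact permutation test cannot go below p = 0.333. The median change of the 8 members was 0.01 on the log2 scale and that of all genes tested was -0.08. The median size of the change, regardless of direction, was 0.16 for the members and 0.13 for all genes.

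**Figure D2:**
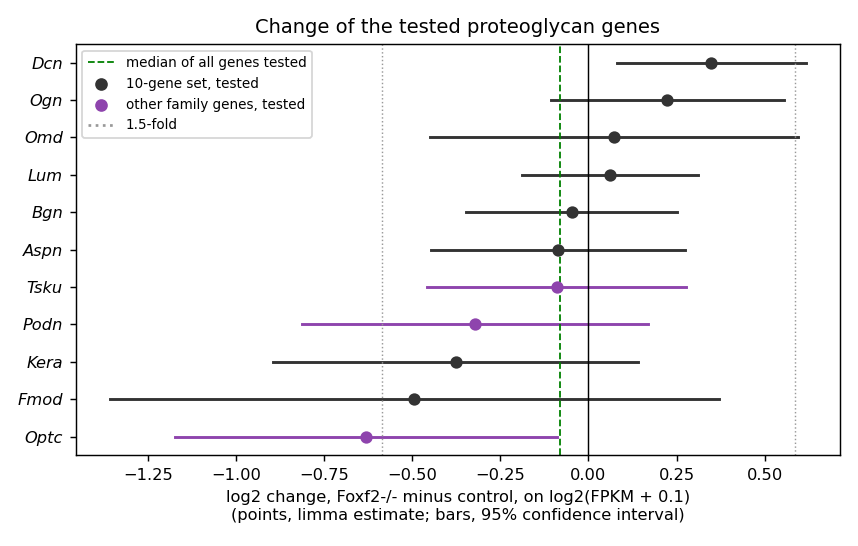
Change of each tested member (black) and of the 3 other tested genes of the family (purple) on log2(FPKM + 0.1), *Foxf2*-/- minus control. Points are limma estimates and bars their 95% confidence intervals, the dotted lines mark 1.5-fold, and the green dashed line marks the median of all genes tested. The bars of *Dcn* and *Optc* do not reach 0 and the others do.

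Among the class I genes, *Dcn* was the only tested member whose groups did not overlap in FPKM as deposited. Decorin carries 1 glycosaminoglycan chain, binds type I collagen and holds TGF-beta in the matrix. *Dcn* was at 26.3 FPKM in the *Osr2*RFP/+ control, 23.6 in the *Foxf2*+/-*Osr2*RFP/+ control, and 29.0 and 34.7 in the mutants, so both mutants were above both controls. The mean was 24.9 ± 1.88 FPKM in controls, against 31.9 ± 4.08 in the mutants (SD, n = 2 each), a 1.27-fold ratio. By limma the log2 difference was 0.35 with a standard error of 0.11, a 95% confidence interval of 0.08 to 0.62 and an adjusted p of 0.311. The interval corresponds to 1.06- to 1.53-fold. The difference was 0.27 against the *Osr2*RFP/+ control alone and 0.43 against the *Foxf2*+/-*Osr2*RFP/+ control alone. It was 0.22 without *Foxf2*-/- replicate 2 and 0.48 without replicate 1. It rested on the longer of 2 *Dcn* transcript entries, of 1886 bases, which held 98.3 to 100% of the gene's FPKM in each embryo.

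Groups that did not overlap were common. They were found for 45.7% of all genes tested, and the mutants were the higher group for 9.89% and the lower group for 35.8%. That imbalance went with a shift of the median over all genes. After median-ratio scaling of the 4 libraries the median of all genes moved from -0.08 to -0.0014 and the shares were 21% higher and 21.5% lower, and after upper-quartile scaling 20.8% and 21.6%. Under either scaling *Dcn*, *Lum* and *Ogn* were the members whose groups did not overlap, all of them higher in the mutants. No tested member was lower in both mutants under any of the 3 scalings.

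Biglycan, the other class I proteoglycan with glycosaminoglycan chains, showed no such separation. *Bgn* was at 129 FPKM in the *Osr2*RFP/+ control, 104 in the *Foxf2*+/-*Osr2*RFP/+ control, and 103 and 121 in the mutants. The groups overlapped and the log2 difference was -0.05, with a 95% confidence interval of -0.35 to 0.25 and an adjusted p of 0.907 by limma. In fold terms the interval was 0.786 to 1.19, so a change of *Bgn* by 1.5-fold in either direction lay outside it. The sign of the *Bgn* difference turned with the scaling, to 0.03 after either the median-ratio or the upper-quartile scaling.

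Asporin, which has the class I core but lacks the usual attachment site for a chain, had overlapping groups as well. *Aspn* was at 5.65 and 4.24 FPKM in the *Osr2*RFP/+ and *Foxf2*+/-*Osr2*RFP/+ controls and at 4.64 and 4.57 in the mutants, which both lay between the controls. The log2 difference was -0.09, with a 95% confidence interval of -0.45 to 0.27 and an adjusted p of 0.847 by limma. An entry of 2351 bases held 83.9 to 96.2% of *Aspn* FPKM.

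Among the class II genes, lumican was the most abundant. Lumican is a keratan sulfate proteoglycan that controls collagen fibril assembly in cornea and skin. *Lum* was at 103 FPKM in the *Osr2*RFP/+ control, 87.0 in the *Foxf2*+/-*Osr2*RFP/+ control, and 95.5 and 103 in the mutants, which both lay within the range of the controls. The log2 difference was 0.06 with a 95% confidence interval of -0.19 to 0.31, or 0.878- to 1.24-fold, and an adjusted p of 0.842 by limma.

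The most negative estimates among the tested members were those of *Fmod* and *Kera*, and both had wide intervals. Fibromodulin binds type I collagen close to the sites where lysyl oxidase crosslinks it. *Fmod* was at 2.47 FPKM in the *Osr2*RFP/+ control, 1.22 in the *Foxf2*+/-*Osr2*RFP/+ control, and 0.917 and 1.59 in the mutants. The *Osr2*RFP/+ control was high and the other 3 embryos lay at or below 1.59 FPKM. The log2 difference was -0.49 with a 95% confidence interval of -1.36 to 0.37 and an adjusted p of 0.604 by limma. It was -0.97 against the *Osr2*RFP/+ control and -0.02 against the *Foxf2*+/-*Osr2*RFP/+ control. It was -0.13 without *Foxf2*-/- replicate 1 and -0.86 without replicate 2, so its size rested on single embryos of either group.

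Keratocan, a keratan sulfate proteoglycan best known from the corneal stroma, followed the same order of the controls. *Kera* was at 3.25 FPKM in the *Osr2*RFP/+ control, 2.19 in the *Foxf2*+/-*Osr2*RFP/+ control, and 2.27 and 1.82 in the mutants. The groups overlapped by a small margin, since 1 mutant lay just above the lower control. The log2 difference was -0.38, with a 95% confidence interval of -0.89 to 0.14 and an adjusted p of 0.510 by limma, and it was -0.65 and -0.10 against the *Osr2*RFP/+ and *Foxf2*+/-*Osr2*RFP/+ controls. It was -0.22 without *Foxf2*-/- replicate 2 and -0.53 without replicate 1.

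Osteomodulin, an acidic keratan sulfate proteoglycan of bone matrix, was low. *Omd* was at 1.35 and 1.24 FPKM in the *Osr2*RFP/+ and *Foxf2*+/-*Osr2*RFP/+ controls and at 1.20 and 1.55 in the mutants, which lay on either side of the controls. The log2 difference was 0.07, with a 95% confidence interval of -0.45 to 0.59 and an adjusted p of 0.920 by limma. *Prelp*, whose arginine- and proline-rich end binds heparin and heparan sulfate, was at 0.338 and 0.351 FPKM in controls, against 0.305 and 0.827 in the mutants. The *Foxf2*-/- replicate 2 embryo alone was high, and *Prelp* was not tested because of its low mean.

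Of the class III genes, *Ogn* was the more abundant. Osteoglycin is also called mimecan and is found in many connective tissues. *Ogn* was at 9.86 FPKM in the *Osr2*RFP/+ control, 9.21 in the *Foxf2*+/-*Osr2*RFP/+ control, and 9.70 and 12.8 in the mutants. The first mutant lay between the controls and the second lay above them. The log2 difference was 0.22 with a 95% confidence interval of -0.11 to 0.55 and an adjusted p of 0.542 by limma. It was 0.03 without *Foxf2*-/- replicate 2 and 0.42 without replicate 1. *Epyc*, which encodes a dermatan sulfate proteoglycan of growth plate cartilage, was listed at 0 in the *Osr2*RFP/+ control and was at 0.0929 FPKM in the other control and 0.127 and 0.368 in the mutants. Its mean read coverage was at most 0.571, the values lay below the filter, and no fold is given. Without a filter on low values, where 17171 genes were tested, *Epyc* had an adjusted p of 0.482 and *Prelp* of 0.742 by limma.

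For every tested member but *Dcn*, a difference between the embryos of 1 group was larger on the log2 scale than the difference between the groups. The *Osr2*RFP/+ control was above the *Foxf2*+/-*Osr2*RFP/+ control in 8 of the 8 tested members, beside 62.7% of all genes tested. The median log2 difference between these controls was 0.27 for the members and 0.05 for all genes. Of the partner genes read below, it was above in 11 of 14 collagens (median 0.24) and 10 of 11 crosslinking and processing genes (0.23). For chondroitin and dermatan sulfate chains it was above in 10 of 17 genes (0.02), for keratan sulfate chains in 6 of 7 (0.06). For binding factors and receptors it was above in 8 of 11 (0.04). The *Foxf2*-/- replicate 2 embryo was above the replicate 1 embryo in 6 of the 8, beside 67.5% of all genes, with median log2 differences of 0.25 and 0.08. Each control genotype had 1 embryo, so genotype and embryo cannot be told apart in the former difference.

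**Figure D3:**
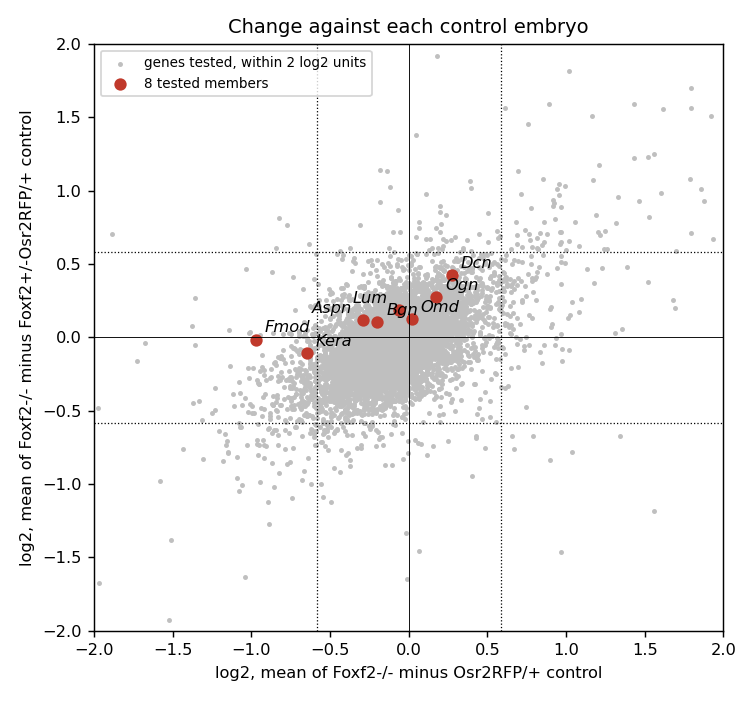
Mean log2(FPKM + 0.1) of the *Foxf2*-/- embryos minus that of the *Osr2*RFP/+ control (horizontal axis) and minus that of the *Foxf2*+/-*Osr2*RFP/+ control (vertical axis), for genes tested within 2 log2 units (grey) and the 8 tested members (red). Dotted lines mark 1.5-fold. *Dcn*, *Ogn* and *Omd* lie above 0 on both axes, *Fmod* and *Kera* lie below 0 on both, and *Lum*, *Bgn* and *Aspn* lie on either side.

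Ratios between members of 1 embryo do not depend on how a library is scaled. The ratio of *Bgn* to *Dcn* was 4.90 and 4.42 in the *Osr2*RFP/+ and *Foxf2*+/-*Osr2*RFP/+ controls and 3.57 and 3.50 in the mutants. The ratio of *Lum* to *Dcn* was 3.93 and 3.69 in the controls and 3.29 and 2.95 in the mutants. In both ratios the mutants were below both controls, and both share the *Dcn* value. The ratio of *Col1a1*, which encodes the main chain of type I collagen, to *Dcn* was 10.3 and 9.62 in the controls and 8.88 and 8.76 in the mutants. The ratio of *Bgn* to *Lum* was 1.25 and 1.20 in the controls and 1.08 and 1.18 in the mutants, lower in both mutants by a smaller margin. On chromosome 13 the ratio of *Ogn* to *Omd* was 7.32 and 7.40 in the controls and 8.07 and 8.26 in the mutants. The other ratios there overlapped between the groups. The ratio of *Ogn* to *Aspn* was 1.75 and 2.17 in the controls and 2.09 and 2.80 in the mutants, and that of *Aspn* to *Omd* was 4.19 and 3.41 in the controls and 3.85 and 2.95 in the mutants.

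*Dcn*, *Lum* and *Kera* are neighbours in 1 gene cluster. The ratio of *Dcn* to *Kera* was 8.09 and 10.8 in the controls and 12.7 and 19.1 in the mutants, and that of *Lum* to *Kera* was 31.8 and 39.7 in the controls and 42.0 and 56.5 in the mutants. For either ratio both mutants lay above both controls. The ratios were chosen after the levels were seen and are descriptions, since the smallest p that an exact permutation test of 2 against 2 embryos allows is 0.333. Groups that did not overlap were also found for 45.7% of single genes tested, and the share over other ratios was not counted.

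Most members lie in clusters of the mouse genome, given here in mm9 from the files. On chromosome 10, on the plus strand, *Dcn* (chr10:96942134-96980796), *Lum* (chr10:97028135-97035337), *Kera* (chr10:97069839-97076322) and *Epyc* (chr10:97106702-97144534) lie head to tail within 202.4 kb. *Lum* was the highest and *Epyc* the lowest of the 4 genes in every embryo. Their log2 differences were 0.35 for *Dcn*, 0.06 for *Lum* and -0.38 for *Kera*. *Gm10754*, on the opposite strand, shares 315 exonic bases with *Epyc*, and the sources used here do not say whether counting used strand, but it was at 0 to 0.0111 FPKM. The flanking gene *Btg1* was at 15.5 and 13.1 FPKM in controls, against 10.8 and 12.2 in the mutants, and *4921510H08Rik* was listed at 0 in all.

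On chromosome 13, *Ecm2* (chr13:49600179-49628158), *Aspn* (chr13:49639812-49662931), *Omd* (chr13:49678116-49687978) and *Ogn* (chr13:49703440-49719869) lie within 119.7 kb, also on the plus strand. The cluster is 17.9 Mb from *Foxf2*, on the same chromosome as the null allele. *Cenpp* spans all 4 genes on the minus strand and shares 0 exonic bases with them in the annotation. It was at 5.94 and 6.28 FPKM in controls, against 5.25 and 5.31 in the mutants. The flanking genes *Ippk* and *Nol8* had log2 differences of 0.12 and -0.40, beside -0.09 for *Aspn*, 0.07 for *Omd* and 0.22 for *Ogn*.

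On chromosome 1, *Optc* (chr1:135793771-135804576) and *Prelp* (chr1:135806882-135817978) lie on the minus strand and *Fmod* (chr1:135934092-135944854) on the plus strand, within 151.1 kb. The flanking genes *Atp2b4* and *Btg2* had log2 differences of -0.04 and -0.11, and *Fmod* had -0.49. *Bgn* (chrX:70728974-70741275) lies apart from these clusters. For each gene, the coding transcript with the most exons in the GENCODE annotation of this build was read. In these transcripts the tested members have 2 to 7 coding exons and coding sequences of 894 to 1269 bases, the shortest in *Ogn* and the longest in *Omd*. *Lum*, *Fmod*, *Omd* and *Prelp* share a layout of 3 exons with 2 coding. The *Kera* transcript has 5 exons with 4 coding, and transcripts with fewer exons were not read.

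**Figure D4:**
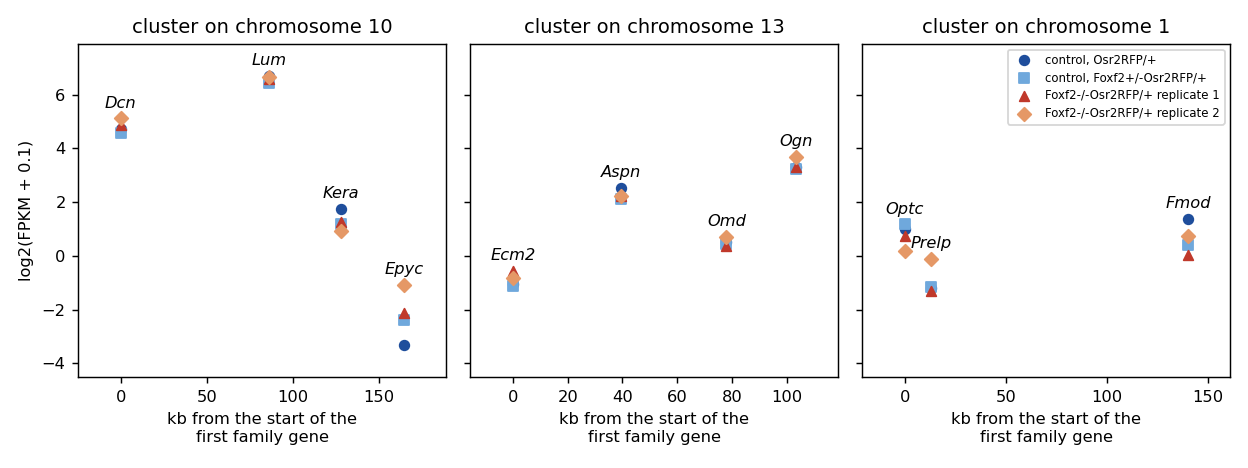
Level of each family gene in the 4 embryos as log2(FPKM + 0.1) against its position in kb from the start of the first family gene, for the clusters on chromosomes 10, 13 and 1. Each gene is drawn at its lower coordinate, and the ranges of neighbouring genes of a cluster do not overlap.

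The sequence just upstream of the members was read for the letters that a forkhead factor recognises. RefSeq windows of 250 bases before an annotated start, taken from the GRCm38 table, were present for 8 of the 10 genes (9 windows, since *Epyc* has 2), and each matched mm9 exactly once. *Dcn* and *Lum* were not among them. The forkhead core TGTTTA, or TAAACA on the other strand, was found in 2 of the 9 windows and in 12% of 32851 windows of all genes. It stood 164 and 137 bases before the start of *Epyc* and 205 bases before that of *Aspn*. The GC box GGGCGG, or CCGCCC on the other strand, was found in the *Bgn* window alone, 3 times, with the last copies overlapping, and in 32.7% of all windows. These windows are shown because they hold the matches, with the forkhead core in capitals for *Epyc* and *Aspn* and the GC box in capitals for *Bgn*.
Epyc, chr10:97106452-97106701, plus strand: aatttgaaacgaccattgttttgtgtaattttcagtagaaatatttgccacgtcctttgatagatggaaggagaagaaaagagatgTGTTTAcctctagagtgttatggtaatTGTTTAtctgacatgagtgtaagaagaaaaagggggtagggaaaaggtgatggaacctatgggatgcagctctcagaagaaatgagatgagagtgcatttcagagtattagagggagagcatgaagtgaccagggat
Aspn, chr13:49639562-49639811, plus strand: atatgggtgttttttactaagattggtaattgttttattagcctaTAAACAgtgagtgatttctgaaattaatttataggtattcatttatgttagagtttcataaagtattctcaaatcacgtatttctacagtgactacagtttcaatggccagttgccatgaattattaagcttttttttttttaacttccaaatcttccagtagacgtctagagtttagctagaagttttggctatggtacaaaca
Bgn, chrX:70728690-70728939, plus strand: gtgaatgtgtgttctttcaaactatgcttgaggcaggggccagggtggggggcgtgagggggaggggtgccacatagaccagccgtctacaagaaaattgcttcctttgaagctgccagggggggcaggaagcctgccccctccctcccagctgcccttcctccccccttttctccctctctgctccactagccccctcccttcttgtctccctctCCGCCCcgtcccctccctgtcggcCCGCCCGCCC
The windows of the members were 30.0% to 64.4% G and C, the lowest in *Aspn* and the highest in *Bgn*, and the median of all windows was 52.4%. *Bgn*, with the GC boxes, was the most abundant member. Of the genes with the forkhead cores, *Aspn* had a log2 difference of -0.09 and *Epyc* was below the level required for a test. A match is only a run of letters and says nothing about binding.

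The other genes of the family were lower than the leading members, and none was called. Of 9 genes, 3 were tested. *Tsku*, which encodes a secreted regulator of BMP and Wnt signalling, was at 11.8 and 9.55 FPKM in controls, against 8.75 and 11.4 in the mutants, with an adjusted p of 0.844 by limma. *Podn* (podocan) was at 4.83 and 3.84 FPKM in controls, against 2.79 and 4.21 in the mutants, with a log2 difference of -0.32 and an adjusted p of 0.555 by limma. *Optc*, which encodes opticin of the vitreous, was at 1.91 and 2.15 FPKM in controls, against 1.55 and 1.04 in the mutants, so both mutants were below both controls. Its log2 difference was -0.63 with a 95% confidence interval of -1.17 to -0.09 and an adjusted p of 0.338 by limma. *Optc* was summed over 4 transcript entries, and their shares moved between embryos. The 1891-base entry held 41.7 and 3.80% of its FPKM in controls, against 0.170 and 84.9% in the mutants. The highest entry of each embryo was at 0.889 and 1.13 FPKM in controls, against 0.957 and 0.887 in the mutants. Those values overlapped between the groups. At an unadjusted p under 0.05, limma gave 1 of these 3 genes, *Optc*, beside 13% of all genes.

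The other 6 family genes were below the filter. *Chadl* was at 1.34 and 1.18 FPKM in controls, against 0.630 and 0.815 in the mutants, a difference of -0.73 on the log2 scale, and without the filter its adjusted p was 0.444 by limma. *Ecm2* was at 0.383 and 0.360 FPKM in controls, against 0.582 and 0.462 in the mutants. *Podnl1* was at 0.319 and 0.306 FPKM in controls, against 0.199 and 0.176 in the mutants. *Nyx* stayed at or below 0.168 FPKM and *Chad* at or below 0.246, and *Nepn* was listed at 0 in all 4 embryos.

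The genes that make the partners of these proteoglycans were then read, as lists chosen with results of these data already known. Limma called 0 genes in each of the 5 lists. The counts at an unadjusted p under 0.05 below stand beside 13% of all genes tested. For fibrillar and fibril-associated collagens, 14 of 16 genes were tested, 4 had an unadjusted p under 0.05 and the median log2 change was -0.02. *Col1a2* was highest by the mean, though not in the *Osr2*RFP/+ control, at 370 and 310 FPKM in controls, against 314 and 343 in the mutants. *Col3a1* was at 381 and 272 FPKM in controls, against 222 and 249 in the mutants, with a log2 difference of -0.45 and an adjusted p of 0.335 by limma. Others, named after their values were seen, were higher in both mutants. *Col12a1*, a chain of fibril-associated type XII collagen, had a mean of 10.8 ± 0.303 FPKM in controls, against 16.3 ± 0.356 in the mutants (SD, n = 2 each), with a log2 difference of 0.59 and an adjusted p of 0.109 by limma, the smallest of the list. *Col14a1*, of the fibril-associated type XIV collagen, was at 2.31 and 2.57 FPKM in controls, against 3.36 and 3.75 in the mutants, with a log2 difference of 0.52 and an adjusted p of 0.275 by limma. *Col9a2*, a chain of the type IX collagen that coats cartilage fibrils, was the only gene of the list over 1.5-fold against both controls, at 5.32 and 3.86 FPKM in controls, against 2.00 and 2.70 in the mutants, with an adjusted p of 0.195 by limma. The other chains of type IX collagen, *Col9a1* and *Col9a3*, had log2 differences of -0.02 and 0.08. The cartilage markers summed to 20.7 and 18.4 FPKM in controls, against 16.7 and 18.9 in the mutants, and their part in the *Col9a2* difference was not tested.

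For the enzymes of collagen crosslinking and propeptide processing, 11 of 16 genes were tested, 3 had an unadjusted p under 0.05 and the median log2 change was -0.04. The most abundant were *Pcolce*, an enhancer of procollagen C-proteinase, at 35.2 to 41.7 FPKM over the embryos, and *Plod2*, a lysyl hydroxylase, at 30.9 to 36.7. *Lox*, which encodes lysyl oxidase and was named after its values were seen, had the smallest adjusted p of the list, 0.177 by limma. It was at 19.5 and 19.0 FPKM in controls, against 25.1 and 28.1 in the mutants, a log2 difference of 0.46. Both mutants were above both controls for 1 tested gene of the list and below for 5, beside 9.89% and 35.8% of all genes tested. For the enzymes that build chondroitin and dermatan sulfate chains, the chains of *Dcn* and *Bgn*, 17 of 18 genes were tested, 3 had an unadjusted p under 0.05 and the median log2 change was -0.10. *Chsy1*, a chondroitin synthase, was at 29.1 to 34.9 FPKM and *Chst14*, the dermatan 4-O-sulfotransferase, at 19.9 to 25.6. *Chsy3*, another chondroitin synthase, was at 0.983 and 1.04 FPKM in controls, against 1.98 and 2.05 in the mutants, over 1.5-fold against both, with an adjusted p of 0.177 by limma.

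For the enzymes that build keratan sulfate chains, the chains of *Lum*, *Fmod*, *Kera* and *Omd*, 7 of 8 genes were tested and the median log2 change was -0.15. *Chst2*, a sulfotransferase that acts on N-acetylglucosamine, was at 18.6 and 20.5 FPKM in controls, against 32.4 and 33.2 in the mutants, over 1.5-fold against both, and it was the only gene of the list with an unadjusted p under 0.05. Its log2 difference was 0.74 with a 95% confidence interval of 0.53 to 0.96 and an adjusted p of 0.0614 by limma, just outside the threshold. Over 15 alternative settings its log2 difference was 0.67 to 0.86 and its adjusted p 0.0414 to 0.363, and it was called in 2 of them. *B4galt1*, the galactosyltransferase next in level, was at 12.2 to 13.5 FPKM over the embryos.

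For growth factors and receptors that these proteoglycans bind, 11 of 14 genes were tested, 2 had an unadjusted p under 0.05 and the median log2 change was 0.03. *Bmp4* was at 40.3 and 41.9 FPKM in controls, against 34.8 and 40.5 in the mutants, and *Lrp1*, an endocytic receptor for decorin, was at 22.97 and 21.98 in the controls and 26.0 and 25.3 in the mutants, with adjusted p-values of 0.617 and 0.413 by limma. As a gene that was called, *Fgf18* was at 15.4 and 14.6 FPKM in controls, against 29.0 and 30.4 in the mutants, with a log2 difference of 0.98 and an adjusted p of 0.0212 by limma.

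**Figure D5:**
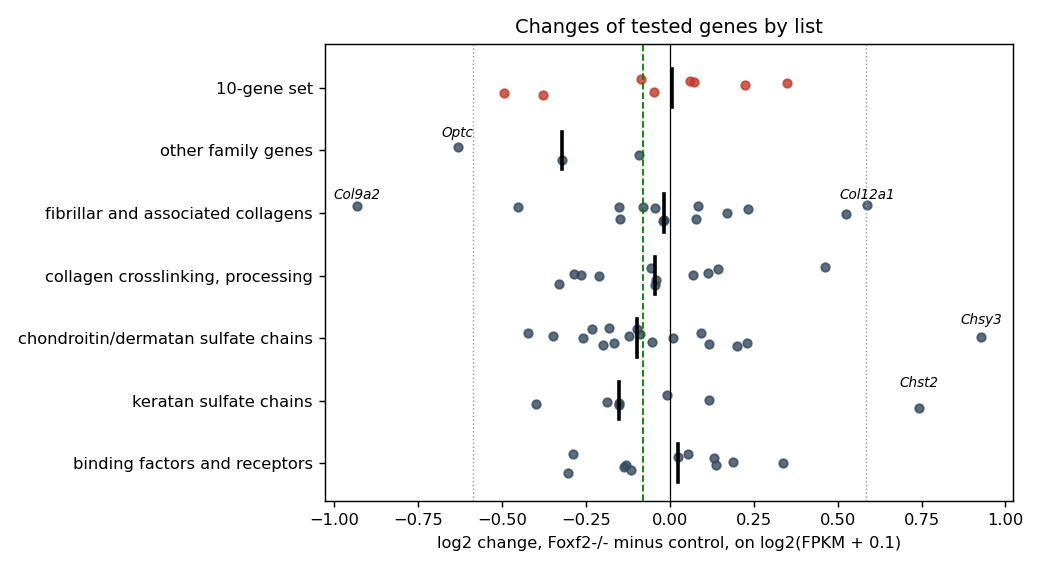
Change of every tested gene of the 10-gene set (red), of the other family genes and of 5 lists of partner genes (blue-grey) on log2(FPKM + 0.1), *Foxf2*-/- minus control, 1 point per gene, spread vertically for legibility. Black bars are list medians, the green dashed line is the median of all genes tested and the dotted lines mark 1.5-fold. The members lie between -0.49 and 0.35, inside the dotted lines.

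Markers of the connective tissues in which these genes are best known were present at unequal levels. Of the cartilage markers, *Sox9* was at 13.2 to 17.2 FPKM, *Lect1* at 1.41 to 2.45 and *Hapln1* at 0.571 to 1.14, while *Acan*, *Comp* and *Matn1* stayed at or below 0.218. *Col2a1*, the main collagen of cartilage, was at 40.1 to 42.3 FPKM. Bone markers summed to 43.7 and 39.5 FPKM in controls, against 39.6 and 40.3 in the mutants, mostly from *Runx2* and *Alpl*, while *Dmp1*, an osteocyte gene, stayed at or below 0.0481. Tendon markers summed to 24.2 and 20.5 FPKM in controls, against 19.2 and 23.7 in the mutants, with *Tnmd*, a marker of mature tendon cells, at 0.443 to 1.06. In these 3 lists the *Osr2*RFP/+ control had the highest sum, but only *Sox9*, *Lect1*, *Alpl* and *Mkx* were themselves highest in it. The other markers of these lists peaked in other embryos, among them *Runx2* at 27.6 FPKM in *Foxf2*-/- replicate 1 and *Egr1* at 9.81 in replicate 2. The *Osr2*RFP/+ control also had the highest level of *Bgn*, *Lum*, *Aspn*, *Kera* and *Fmod*. The part of cartilage, bone or tendon cells in the levels of those 5 genes was not tested. Markers of macrophages summed to 13.1 to 21.7 FPKM, with *C1qb* at 6.16 to 9.87. *Pf4* was at 4.28 and 5.69 FPKM in controls, against 0.684 and 2.86 in the mutants, with an adjusted p of 0.299 by limma. *Csf1r* went the other way, at 1.91 and 2.50 FPKM in controls, against 2.56 and 2.97 in the mutants. Markers of nerve and glia (3.58 to 5.77 summed FPKM) and skeletal muscle (0.406 to 0.882) were low in all 4 embryos, and *Myog* was listed at 0.

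The genes whose pattern over the 4 embryos was most like those of *Fmod* and *Kera*, the tested members with the largest changes in FPKM as deposited, were sought among 6927 genes with a mean of at least 5 FPKM, by the Euclidean distance between centred log2 values. After median-ratio scaling *Dcn* had the largest change at 0.43, ahead of *Fmod* at -0.42, *Ogn* at 0.30 and *Kera* at -0.30. For *Fmod* they were *Pmm1* at a distance of 0.37, *Ly6d* at 0.37 and *Lynx1* at 0.40. For *Kera* they were *Nrk* at 0.13, *4930539J05Rik* at 0.13 and *Gtf2b* at 0.17. With only 4 embryos, a small distance is a description of these libraries.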

How the data were processed

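RFP+ palatal mesenchyme cells of 4 E13.5 embryos were sequenced, 1 library per embryo and none pooled. Per the labels and the study's methods, the authors used Tophat and Bowtie 0.12.7 to align single-end reads to the mm9 genome. The deposited tables have the form that Cufflinks writes and give an FPKM and a mean read coverage for each of 28107 transcript entries. The program and options behind these FPKM values are not given in the sources used here. Coverage, a signal the authors left unscaled, served only for relative depth, and no read numbers were recoverable from the deposited values: 23.0 to 23.9% of low values came within 0.1 of a whole number of 50-base reads.

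Entries of at least 200 bases were summed by gene symbol, which gave 21352 genes. Left out were 10 genes whose estimate had failed somewhere and 734 genes without an entry of that length. A gene was tested when its mean over all 4 embryos reached 1 FPKM. Differences were tested with limma 3.58.1 in R 4.3.3, with a variance trend, on log2(FPKM + 0.1), *Foxf2*-/- against both controls together. This scale understates the change of low genes. Adjustment (Benjamini-Hochberg) was over the 11154 genes tested. The p-values rest on the spread between littermates, with the variance of each gene drawn towards a trend over all genes tested. Each control genotype was 1 embryo. The script was tested on simulated data. Levels by embryo, 15 alternative settings and the sequence windows were computed in Python 3.11.15 from the same values and from RefSeq and mm9 references.

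The genes, the lists of partner genes and the markers were chosen with earlier results of these data known, and no test over a list was made. Genes named were all family genes, genes of each partner list that were called or changed over 1.5-fold against both controls with the 2 highest of the list, neighbours in the clusters, *Foxf2* and *Fgf18*, and the 3 nearest patterns of the 2 tested members most changed in FPKM as deposited. Single marker genes, *Lox* and further collagens were also named after their values were seen.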

Additional observations from a re-analysis of the deposited data

How the results depend on the processing

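None of the members was called by limma under any of the 15 alternatives, and 109 of 117 member changes kept their direction. The 8 that reversed were *Lum* with the number of null alleles as a linear term (-0.0225) and without the *Foxf2*+/-*Osr2*RFP/+ control (-0.0618), *Bgn* after median-ratio scaling (0.0327), after upper-quartile scaling (0.0323), without the *Osr2*RFP/+ control (0.103) and without *Foxf2*-/- replicate 1 (0.0686), *Omd* without *Foxf2*-/- replicate 2 (-0.0974) and *Aspn* without the *Osr2*RFP/+ control (0.116). The cause was not tested. With 1 embryo left out, the changes ranged from -0.0618 to 0.185 for *Lum*, -0.198 to 0.103 for *Bgn*, -0.0974 to 0.242 for *Omd*, -0.289 to 0.116 for *Aspn*, 0.0259 to 0.421 for *Ogn*, -0.972 to -0.0152 for *Fmod* and -0.649 to -0.105 for *Kera*. Over all 15 alternatives the *Dcn* difference ranged from 0.22 to 0.48. In the alternatives that kept all 4 embryos, its adjusted p by limma was 0.177 to 0.444. Without a filter on low values, 1 member (*Epyc*, at 0 to 0.368 FPKM) was over 1.5-fold against both controls. Its fold depends on the added 0.1 FPKM, and the share of all genes over 1.5-fold was not counted in this setting. In the same setting 2 members had groups that did not overlap (40.7% of all genes). That count was 3 after median-ratio scaling (42.5%), 3 after upper-quartile scaling (42.4%), and 4 to 6 of the 8 when an embryo was left out, which leaves fewer values to overlap (68.2 to 76.2%). In the partner lists, 1 gene (*Chst2*) was called with a pseudocount of 1 and 1 (*Chst2*) when the filter asked for 5 FPKM in some embryo. Leaving out an embryo moved the median member change between -0.13 and 0.12.

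The count over all genes was 7 and moved by over 1.5 times with a pseudocount of 1 (13), no filter (0), all entries (27), the highest entry only (1), no variance trend (0), a separate mean for each genotype (20), null alleles as a linear term (15), and without the *Foxf2*+/-*Osr2*RFP/+ control (38) or either mutant (11 each). When an embryo is left out, the lone sample of a group is assumed to vary like the others. No paired analysis was made, because nothing in the design matches a single control embryo to a single mutant embryo. The limits are the 2 embryos per group, the unknown read depth, and intervals that for *Dcn*, *Fmod*, *Kera* and *Omd* reach beyond 1.5-fold.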
